A study of Mus musculus with 2 samples.

Results

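Glycolysis, pyruvate entry and the tricarboxylic acid (TCA) cycle were described from 37 genes in layer 5 pyramidal neurons of the mouse cortex. The genes were chosen by name, as the glucose and lactate carriers, the glycolytic enzymes, the lactate dehydrogenases, the proteins that bring pyruvate into mitochondria, the TCA cycle enzymes and the enzymes of the malate-aspartate shuttle. Each was found in the deposited tables by its Ensembl identifier, and all 37 of 37 matched among the 43346 genes listed. Levels are given in TPM, a deposited measure of transcript abundance scaled by transcript length and depth, so that different genes can be compared within a library.

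The samples were 2 libraries of 1 group with no second condition, labelled as the biological replicates 1 and 2 and called pool 1 and pool 2 here. Each came from a pool of 50 neurons taken by laser capture from the cortex of wild-type male mice aged 8 months, and RNA over 200 nt was copied by a Smart-seq protocol after synthetic spike-in RNAs were added. The strain is labelled B6NCrl, but other label fields read C57Bl5 or C57Bl6. An antibody tag reads Control in both libraries. Both libraries carry the same donor identifier, so the spread between them may be technical, and the number of animals behind them cannot be read from the labels. No test was run. For ratios within a library, exact sign flips over 2 libraries allow no two-sided p below 0.5. Between the pools, 1 library on each side leaves no residual spread. Differences are set against the SD over the libraries or only described.

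Pool 1 held 24171434 estimated reads and pool 2 held 27946180, of which spike-ins took 4.28% in pool 1 and 5.32% in pool 2. All 6 glutamatergic neuron markers and all 5 layer 5 markers were detected in each pool at TPM of at least 1. The layer 5 markers summed to 2251 TPM in pool 1 and 4715 TPM in pool 2, and 3 of 5 were at least 2-fold lower in pool 1. Pcp4 held most of each sum, at 2134 TPM in pool 1 and 4468 TPM in pool 2, and 1 of the 5 was higher in pool 1. Markers of other cells were present too. Interneuron markers summed to 3879 TPM in pool 1 and 1499 TPM in pool 2, with 7 of 8 detected in both and 4 of the 7 compared at least 2-fold higher in pool 1. Sst alone held 2506 TPM in pool 1 and 844 TPM in pool 2, and 1 of the 7 compared was lower in pool 1. Astrocyte markers (10 of 10 detected in both) summed to 553 TPM in pool 1 and 652 TPM in pool 2. Of these sums, Aldoc, also a glycolytic gene, held 272 TPM in pool 1 and 326 TPM in pool 2. The astrocyte medians were 16.3 TPM in pool 1 and 15.1 TPM in pool 2. Oligodendrocyte markers (8 of 8) summed to 521 TPM in pool 1 and 670 TPM in pool 2. Microglial markers (6 of 8) summed to 131 TPM in pool 1 and 50.7 TPM in pool 2, and endothelial markers (5 of 8) to 115 TPM in pool 1 and 104 TPM in pool 2. Of the 4 endothelial markers compared, 3 were nevertheless lower in pool 1. Mural markers (2 of 5) summed to 20.3 TPM in pool 1 and 35.5 TPM in pool 2. Of these sums, Vtn held 4.39 TPM in pool 1 and 25.7 TPM in pool 2. Acta2 went the other way, at 11.6 TPM in pool 1 and 0.21 TPM in pool 2. Erythroid markers (5 of 5) summed to 7.59 TPM in pool 1 and 384 TPM in pool 2. Oligodendrocyte precursor markers (2 of 3) summed to 12.1 TPM in pool 1 and 4.24 TPM in pool 2. The part that RNA of these cells had in the levels below was not tested, and in such pools fewer cells of a type and less RNA per cell cannot be told apart.

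Glycolysis splits glucose into pyruvate in the cytosol, yielding some ATP and NADH. Pyruvate is then either reduced to lactate by lactate dehydrogenase or carried into the mitochondrion, oxidised to acetyl-CoA by the pyruvate dehydrogenase complex and burned in the TCA cycle, whose NADH feeds the respiratory chain. The malate-aspartate shuttle moves the electrons of cytosolic NADH into the mitochondrion. Neurons are known for heavy use of oxidative phosphorylation, for taking up glucose through Slc2a3 and, in a much discussed model, for taking up lactate that astrocytes release.

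All 37 genes were detected in both pools at TPM of at least 1, against 52.2% of 21474 protein-coding genes (11211 genes). Their median level was 208 TPM in pool 1 and 251 TPM in pool 2, against medians over all protein-coding genes of 2.02 TPM in pool 1 and 1.84 TPM in pool 2. The median gene of the group therefore lay at percentile 97.1 of coding genes in pool 1 and at percentile 97.6 in pool 2, and 22 of the 37 lay above the 95th percentile in both. Summed, the group held 14983 TPM in pool 1 and 17650 TPM in pool 2, and it took 1.91% of the estimated gene reads in pool 1 and 2.25% in pool 2. The spread inside the group was wide, with means over the libraries running from 4.52 TPM for Slc16a1 to 2191 TPM for Aldoa.

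**Figure D1:**
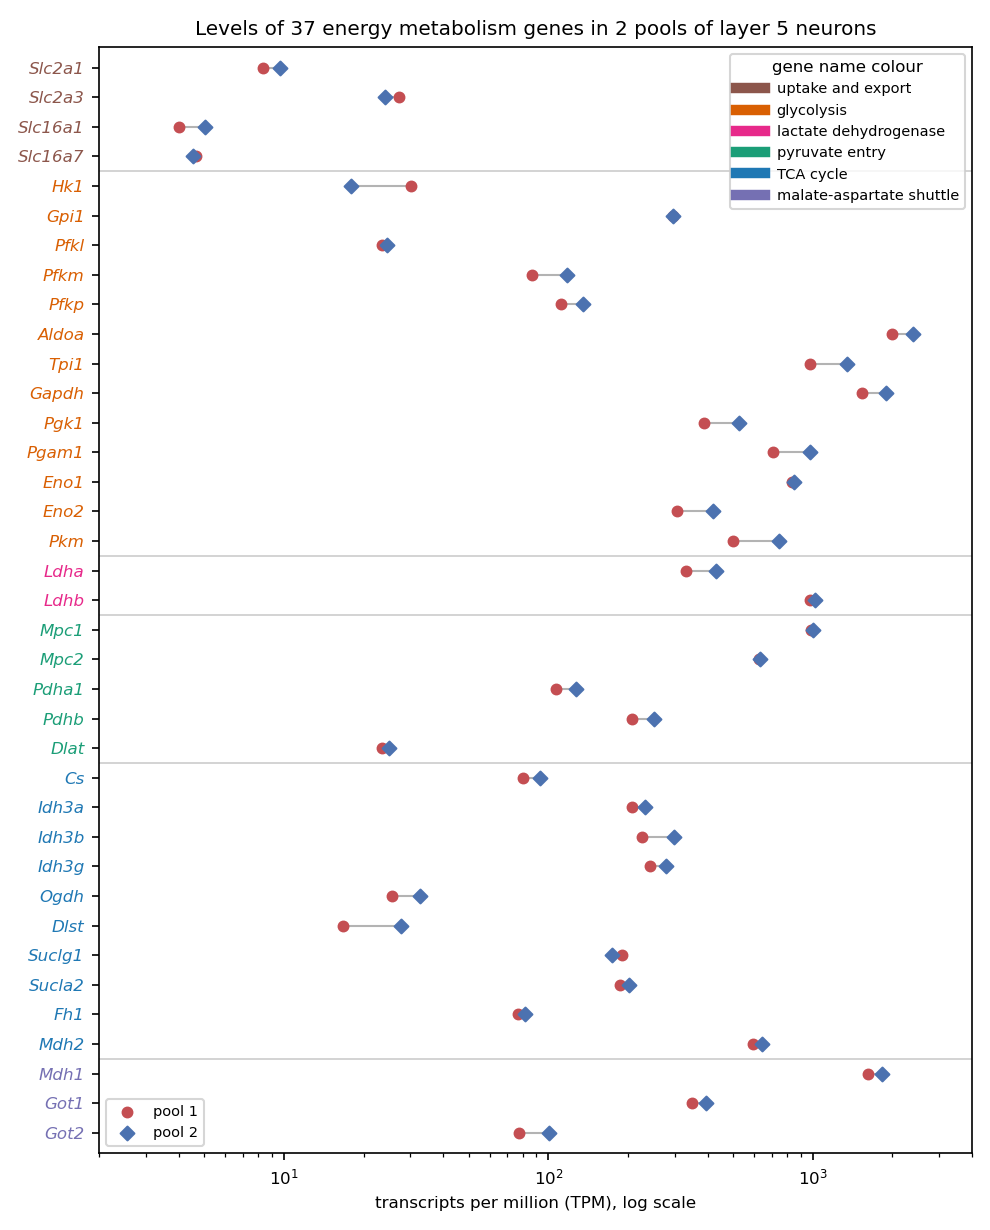
Level of each of the 37 genes in TPM on a log axis, with a circle for pool 1, a diamond for pool 2, a line joining the libraries and the gene name coloured by role. The 4 carriers of glucose and lactate have means of 4.52 to 25.7 TPM, and Aldoa, Mdh1 and Gapdh lie highest in both libraries.

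The carriers of the plasma membrane had the lowest median of the 6 role groups, at 6.49 TPM in pool 1 and 7.34 TPM in pool 2 over 4 genes. Slc2a3, the glucose transporter typical of neurons, stood at 27.2 TPM in pool 1 and 24.2 TPM in pool 2. Slc2a1, the glucose transporter best known from brain endothelium and astrocytes, stood at 8.31 TPM in pool 1 and 9.65 TPM in pool 2. Slc2a3 was thus 2.68-fold above Slc2a1, a log2 ratio of 1.42 ± 0.25 (SD, n = 2) that exceeded the spread between the pools. This and the later ratios between paired genes are on the scale of TPM + 1, which understates ratios to genes near 0. Their SD covers the spread between the 2 libraries only, and not errors of length or transcript model that both libraries share. The monocarboxylate carriers, which move lactate and pyruvate, were lower still. Slc16a7, the high-affinity carrier of neurons, stood at 4.66 TPM in pool 1 and 4.51 TPM in pool 2, from 215 reads in pool 1 and 251 reads in pool 2. Slc16a1, the carrier best known from glia and endothelium, stood at 4.02 TPM in pool 1 and 5.02 TPM in pool 2. Which of these carriers was higher differed between the pools, and their log2 ratio of 0.02 ± 0.21 (SD, n = 2) lay within the spread.

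Of 11 further genes of uptake and export, 5 were detected in both pools. Bsg, which encodes basigin, the chaperone that brings monocarboxylate carriers to the membrane, stood at 529 TPM in pool 1 and 689 TPM in pool 2. Emb, which encodes the related chaperone embigin, stood at 28.4 TPM in each library. Slc2a6, a glucose transporter family member of internal membranes, stood at 15.7 TPM in pool 1 and 25.6 TPM in pool 2. Bsg was thus more than 100-fold above Slc16a1 or Slc16a7 in each pool. Slc16a3, the lactate exporter associated with astrocytes, was named after its values were seen. It had 0 reads in pool 1, below a floor of 3 reads, and 6 reads in pool 2.

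The 13 glycolytic enzyme genes had medians of 389 TPM in pool 1 and 528 TPM in pool 2, and their levels differed by step. Genes of hexokinase and phosphofructokinase, the regulated early steps, stood lowest of these 13. Hk1, the hexokinase that phosphorylates glucose on the mitochondrial surface in brain, stood at 30.3 TPM in pool 1 and 18.0 TPM in pool 2. Hk2, the hexokinase known from muscle and proliferating cells, stood at 1.13 TPM in pool 1 and 1.09 TPM in pool 2, with 64 estimated reads in each. The Hk1 to Hk2 log2 ratio was 3.53 ± 0.49 (SD, n = 2), beyond the spread. Gpi1, which converts glucose 6-phosphate to fructose 6-phosphate, stood at 294.9 TPM in pool 1 and 295.2 TPM in pool 2.

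Phosphofructokinase, the main point of control of glycolysis, has 3 subunit genes. Pfkp, the platelet type, stood at 111 TPM in pool 1 and 136 TPM in pool 2, and Pfkm, the muscle type, at 86.8 TPM in pool 1 and 118 TPM in pool 2. Pfkl, the liver type, stood at 23.4 TPM in pool 1 and 24.6 TPM in pool 2. The order was the same in both pools, with Pfkl 4.96-fold below Pfkp (log2 ratio -2.31 ± 0.15, SD, n = 2) and Pfkm 1.21-fold below Pfkp (-0.28 ± 0.11). In pool 1 protein-coding transcripts held 78.4% of the Pfkp TPM, and over coding transcripts alone the Pfkm to Pfkp log2 ratio was -0.01.

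The enzymes that follow were abundant. Aldoa, the aldolase that splits fructose 1,6-bisphosphate, stood at 1995 TPM in pool 1 and 2388 TPM in pool 2, the highest level of the 37 genes in each pool. Its paralog Aldoc, the brain aldolase and an astrocyte marker, stood at 272 TPM in pool 1 and 326 TPM in pool 2. The Aldoa to Aldoc log2 ratio was 2.87 in each library, or 7.30-fold. Tpi1, which interconverts the triose phosphates, stood at 980 TPM in pool 1 and 1349 TPM in pool 2, and Gapdh, which oxidises glyceraldehyde 3-phosphate and yields NADH, at 1535 TPM in pool 1 and 1891 TPM in pool 2. Pgk1 and Pgam1, the phosphoglycerate kinase and mutase, stood at 389 and 708 TPM in pool 1 and at 528 and 976 TPM in pool 2. These 5 enzyme genes each stood lower in pool 1 than in pool 2.

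Enolase, which makes phosphoenolpyruvate, is encoded by the widely expressed Eno1 and by Eno2, known as neuron-specific enolase. Eno1 stood at 836 TPM in pool 1 and 846 TPM in pool 2. Eno2 stood at 306 TPM in pool 1 and 421 TPM in pool 2. Eno2 lay below Eno1 in both pools, 2.34-fold in the mean (log2 ratio -1.23 ± 0.31, SD, n = 2). Of the Eno1 sequence, 53.5% of 31-mers also occur in transcripts of other genes, among them the copy Eno1b, and of the 4 genes sharing at least 5%, the 2 with read values here held reads equal to 1.19% of those of Eno1 in pool 1 and 1.23% in pool 2. For Eno2 the shared part was 1.33%.

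Pkm encodes pyruvate kinase of muscle, brain and many other tissues, which makes pyruvate and ATP, and stood at 500 TPM in pool 1 and 746 TPM in pool 2. Pklr, the liver and red cell gene, had 5 reads (0.09 TPM) in pool 1 and 0 reads in pool 2, where the floor is 3 reads. Pkm transcripts carry one of 2 mutually exclusive exons. The M1 exon is known from neurons and muscle and gives a constantly active enzyme, and the M2 exon is known from proliferating and embryonic cells and gives an enzyme under allosteric control. Both are shown, from the GENCODE M21 transcripts on GRCm38, because they tell the 2 forms apart. In M21 the transcripts also differ at their ends, with 2041 nt for the M1 form and 2432 nt for the M2 form. In the deposited values both have 2432 nt, and whether other positions also separated them there was not tested. Each is 167 nt long on the plus strand, the M1 exon at chr9:59675029-59675195 and the M2 exon at chr9:59675568-59675734. Capitals mark the 64 positions that differ, which leaves an identity of 61.7%.
M1 exon: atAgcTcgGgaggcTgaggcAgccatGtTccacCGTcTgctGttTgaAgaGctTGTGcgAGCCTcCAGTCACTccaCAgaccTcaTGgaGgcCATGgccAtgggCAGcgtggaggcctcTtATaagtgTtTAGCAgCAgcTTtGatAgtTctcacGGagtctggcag
M2 exon: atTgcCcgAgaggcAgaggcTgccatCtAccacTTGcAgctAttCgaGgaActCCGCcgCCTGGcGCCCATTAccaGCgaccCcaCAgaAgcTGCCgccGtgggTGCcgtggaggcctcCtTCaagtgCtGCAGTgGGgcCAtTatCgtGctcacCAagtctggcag

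The transcript with the M1 exon held nearly all Pkm signal in pool 1, the library for which transcript values were used. Pkm-202, with the M1 exon, stood at 493 TPM from 23007 estimated reads, or 98.7% of the Pkm TPM. Pkm-201, with the M2 exon, stood at 6.50 TPM from 303 estimated reads, or 1.30%. The posterior SD of the count, which measures how surely reads were assigned, was 52.4 reads for each transcript. That is 0.228% of the count of Pkm-202 and 17.3% of that of Pkm-201. With 1 library this split has no replicate check.

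Among 21 further glycolytic genes, 12 were detected in both pools. Besides Aldoc, Bpgm, which makes 2,3-bisphosphoglycerate, stood at 20.98 TPM in pool 1 and 19.7 TPM in pool 2. Pgam2, the muscle phosphoglycerate mutase, stood at 16.6 TPM in pool 1 and 15.4 TPM in pool 2. Pfkfb3, named after its values were seen, makes the phosphofructokinase activator fructose 2,6-bisphosphate and stood at 2.18 TPM in pool 1 and 2.49 TPM in pool 2. Of the testis forms, likewise named after their values were seen, Pgk2 and Ldhc had 0 reads in both pools, and Gapdhs had 2 reads in pool 1 and 1 read in pool 2.

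Lactate dehydrogenase genes were abundant, with Ldhb above Ldha. Ldhb, the heart-type subunit, which is classically linked to the use of lactate, stood at 973 TPM in pool 1 and 1017 TPM in pool 2. Ldha, the muscle-type subunit, classically linked to making lactate, stood at 332 TPM in pool 1 and 431 TPM in pool 2. The log2 ratio of Ldhb to Ldha was 1.55 in pool 1 and 1.24 in pool 2 (1.39 ± 0.22, SD, n = 2), so Ldhb was 2.63-fold higher, beyond the spread between the pools. In pool 1 the leading coding transcript held 99.9% of the Ldhb TPM and 99.2% of the Ldha TPM, so in that library the order did not rest on transcript fragments.

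Pyruvate entry was led by the mitochondrial pyruvate carrier. Mpc1 stood at 988 TPM in pool 1 and 1003 TPM in pool 2, and Mpc2, its partner in the carrier, at 626 TPM in pool 1 and 631 TPM in pool 2. Mpc2 was 1.58-fold below Mpc1 (log2 ratio -0.66 ± 0.01, SD, n = 2). In pool 1 Mpc2-203, a noncoding transcript of 493 nt, held 27.6% of the Mpc2 TPM, and over coding transcripts the log2 ratio was -1.12. The pyruvate dehydrogenase complex was lower. Pdhb, the beta subunit of its first enzyme, stood at 208 TPM in pool 1 and 251 TPM in pool 2. Pdha1, the X-linked alpha subunit, stood at 107 TPM in pool 1 and 127 TPM in pool 2, 1.95-fold below Pdhb (log2 ratio -0.96 ± 0.02). Dlat, the acetyltransferase core of the complex, stood at 23.5 TPM in pool 1 and 24.9 TPM in pool 2, the lowest of the 5 genes of this step.

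Of 11 further genes of pyruvate entry, 9 were detected in both pools. Dld, the dihydrolipoamide dehydrogenase that the pyruvate and 2-oxoglutarate complexes share, stood at 96.2 TPM in pool 1 and 90.1 TPM in pool 2. Pdp1, the phosphatase that activates pyruvate dehydrogenase, stood at 50.3 TPM in pool 1 and 50.0 TPM in pool 2, and Pdhx, which tethers Dld to the complex, at 30.97 TPM in pool 1 and 32.5 TPM in pool 2. The opposing kinases were named after their values were seen. Pdk3 stood at 29.6 TPM in pool 1 and 23.8 TPM in pool 2, Pdk2 at 15.4 TPM in pool 1 and 28.4 TPM in pool 2, and Pdk1 at 11.8 TPM in pool 1 and 12.1 TPM in pool 2. Pdk4, the kinase induced by fasting, stood at 0.64 TPM in pool 1 and 0.08 TPM in pool 2, from 13 reads in pool 1 and 6 reads in pool 2.

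The 10 TCA cycle genes had medians of 189 TPM in pool 1 and 188 TPM in pool 2. Mdh2, the mitochondrial malate dehydrogenase, was the highest of them at 594 TPM in pool 1 and 643 TPM in pool 2. The NAD-linked isocitrate dehydrogenase has 3 kinds of subunit. Idh3b stood at 226 TPM in pool 1 and 299 TPM in pool 2, Idh3g at 242 TPM in pool 1 and 279 TPM in pool 2, and the catalytic Idh3a at 208 TPM in pool 1 and 232 TPM in pool 2. Idh3a lay 1.18-fold below Idh3g (log2 ratio -0.24 ± 0.04, SD, n = 2), a gap that was -0.01 over coding transcripts in pool 1.

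The 2-oxoglutarate dehydrogenase genes were the lowest of these 10. Ogdh, its first enzyme, stood at 25.7 TPM in pool 1 and 32.7 TPM in pool 2. Dlst, the succinyltransferase core, stood at 16.8 TPM in pool 1 and 27.6 TPM in pool 2. Ogdh, Dlst and Dlat, parts of related dehydrogenase complexes, thus each stood below 33 TPM in both pools. Ogdhl, the Ogdh paralog known from brain, stood at 1.88 TPM in pool 1 and 3.11 TPM in pool 2, 8.71-fold below Ogdh in the mean (log2 ratio of Ogdh to Ogdhl 3.12 ± 0.12, SD, n = 2).

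Succinyl-CoA ligase pairs a shared alpha subunit, Suclg1, with a beta subunit that sets the nucleotide made. Suclg1 stood at 190 TPM in pool 1 and 174 TPM in pool 2. Sucla2, the ATP-forming beta subunit, stood at 187 TPM in pool 1 and 202 TPM in pool 2. Suclg2, the GTP-forming beta subunit, stood at 4.29 TPM in pool 1 and 3.07 TPM in pool 2. Sucla2 was 42.1-fold above Suclg2 (log2 ratio 5.40 ± 0.35, SD, n = 2), beyond the spread. Cs, the citrate synthase that opens the cycle, stood at 80.4 TPM in pool 1 and 93.2 TPM in pool 2, and Fh1, fumarate hydratase, at 76.7 TPM in pool 1 and 81.4 TPM in pool 2.

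All 13 further TCA cycle genes were detected in both pools. The highest were subunits of succinate dehydrogenase, which is also a complex of the respiratory chain. Sdhb, the iron-sulfur subunit, stood at 488 TPM in pool 1 and 494 TPM in pool 2. Sdhd, a membrane anchor, stood at 212 TPM in pool 1 and 246 TPM in pool 2, and Sdha, the flavoprotein, at 135 TPM in pool 1 and 148 TPM in pool 2.

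The malate-aspartate shuttle was abundant on its cytosolic side. Mdh1, the cytosolic malate dehydrogenase, stood at 1615 TPM in pool 1 and 1827 TPM in pool 2. It exceeded Mdh2 by 2.77-fold (log2 ratio of Mdh2 to Mdh1 -1.47 ± 0.04, SD, n = 2). Got1, the cytosolic aspartate aminotransferase, stood at 350 TPM in pool 1 and 396 TPM in pool 2, and Got2, its mitochondrial counterpart, at 77.5 TPM in pool 1 and 101 TPM in pool 2. Got1 exceeded Got2 by 4.18-fold (log2 ratio of Got2 to Got1 -2.06 ± 0.14). For both enzymes the gene of the cytosolic form thus stood above that of the mitochondrial form in each pool.

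Of 7 further shuttle genes, 5 were detected in both pools. Slc25a11, the malate carrier of the inner membrane, stood at 117 TPM in pool 1 and 154 TPM in pool 2, and Slc25a12, the aspartate-glutamate carrier of neurons, at 57.5 TPM in pool 1 and 63.3 TPM in pool 2. Gpd2, the mitochondrial enzyme of the glycerol phosphate shuttle, stood at 35.2 TPM in pool 1 and 15.9 TPM in pool 2. It was the 1 gene beyond 2-fold between the pools among 33 further pathway genes compared, against 4.46% of all 9190 genes compared.

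**Figure D2:**
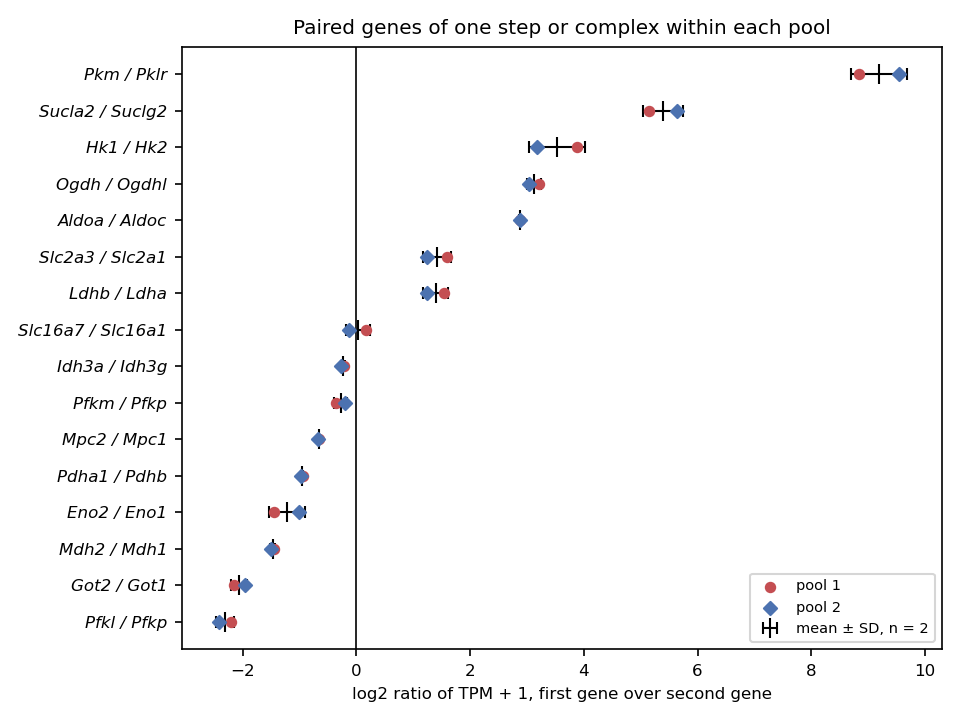
Log2 ratio of TPM + 1 between 2 genes of one step, complex or carrier family within each pool, with a circle for pool 1, a diamond for pool 2 and a black mark with bars for the mean and SD (n = 2). In 15 of 16 pairs the mean lies more than 1 SD from 0, and Slc16a7 to Slc16a1 is the exception at 0.02 ± 0.21. With 2 libraries this says little more than that the sign is the same in both, as it is in 15 pairs.

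As a group, the glycolytic enzyme genes stood above the TCA cycle genes. The median of log2(TPM + 1) over 13 glycolytic genes exceeded that over 10 cycle genes by 1.04 in pool 1 and 1.49 in pool 2 (1.27 ± 0.32, SD, n = 2), or 2.41-fold. The direction depended on which genes stood for each pathway. Over all 27 glycolytic and 23 cycle genes listed at a mean TPM of at least 1, low paralogs and regulators included, the difference was -1.96. The pathways were stood for by different genes, and no other tissue was measured, so this difference says nothing of flux.

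Between the pools none of the genes compared differed 2-fold, and most differed in one direction. Counts were scaled by TMM, which assumes that most genes do not differ, and each gene's log2 ratio of pool 1 over pool 2 was taken on CPM + 1, CPM being the count scaled to library size. At mean CPM of at least 10, 36 of the 37 genes could be compared, all but Slc16a7. None of the 36 lay beyond 2-fold, against 4.46% of the 9190 genes compared (410 genes), and 1 of the 36, Dlst, lay beyond 1.5-fold, against 16.9% of all genes compared. With 1 library on each side there is no residual spread and no p, adjusted or not, was computed. The ratio was below 0, that is lower in pool 1, for 33 of the 36 genes, against 53.1% of all genes compared. The median ratio of the group was -0.21, against -0.03 over all genes, and its range of -0.71 to 0.33 lay inside the 5th to 95th percentiles of all genes, -0.74 to 0.74. That band is narrower among abundant genes, as given below.

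The direction itself rested on the scaling. Scaled to the spike-in totals, the median over all genes moved to 0.33 and that of the group to 0.14, and 11 of 36 genes lay below 0, against 19.6% of the 9219 genes compared under that scaling. The group median minus that of all genes was -0.18 with TMM, a gap that a change of scaling leaves nearly as it is by construction. Among abundant genes, at a minimum mean CPM of 100 chosen after seeing the data, 26 of 27 members lay below 0, against 55% of 2062 genes. Their median was -0.24, against -0.04. None of the 27 lay beyond 2-fold, against 1.94% of those 2062 genes, so 0 among so few genes is near that share. The 5th to 95th percentiles of those 2062 genes were -0.57 to 0.45, and Pkm, at -0.58, lay below them. Summed over each list, interneuron and microglial markers were higher in pool 1 and layer 5 and erythroid markers higher in pool 2, as given above. Not every layer 5 or interneuron marker followed its sum. The part of these markers' cells in the ratios was not tested.

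**Figure D3:**
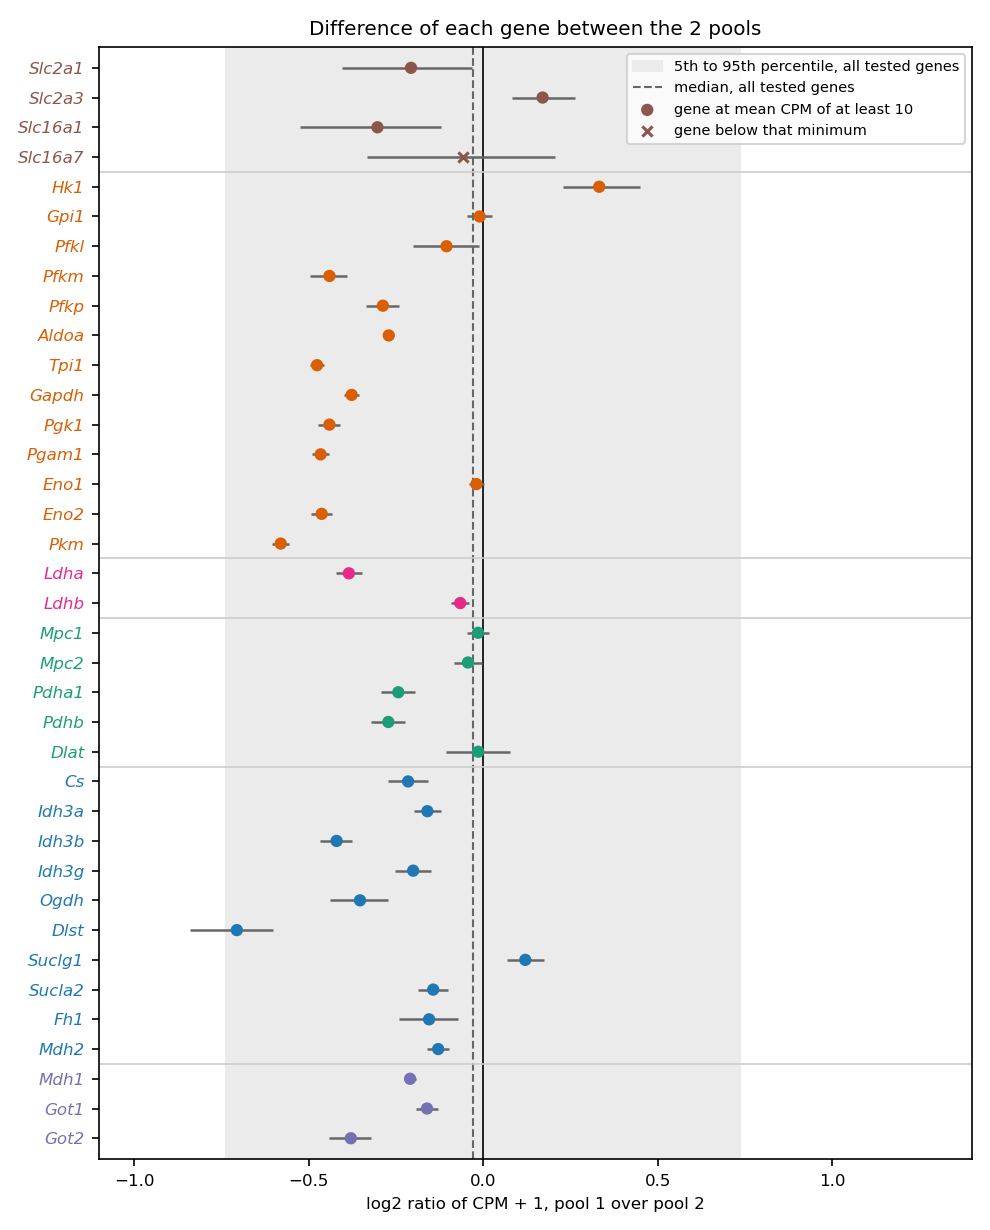
Log2 ratio of CPM + 1, pool 1 over pool 2, for each of the 37 genes, coloured by role, with bars for the 95% exact counting interval. The grey band spans the 5th to 95th percentiles of the 9190 genes compared (-0.74 to 0.74) and the dashed line their median (-0.03), and 33 of the 36 genes compared lie left of 0.

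The differences were uneven along the pathway. With TMM scaling, log2 ratios below -0.3 (lower in pool 1) were found for 13 of the 36 genes, against 23.6% of all genes compared. They were 7 of the 13 glycolytic genes, 3 of the 10 TCA cycle genes, 0 of the 5 pyruvate entry genes, 1 of the 3 shuttle genes, 1 of the 2 lactate dehydrogenase genes and 1 of the 3 carriers compared. Differences between these steps were not tested, and the cut of -0.3 was not set in advance. Scaled to the spike-in totals, all these ratios shift upward, so the counts hold for TMM only. Pkm stood lowest of the 13 glycolytic genes at -0.58 with a 95% exact counting interval of -0.60 to -0.56, followed by Tpi1 at -0.48, Pgam1 at -0.47 and Eno2 at -0.46. Gpi1 and Eno1 lay near 0, at -0.01 and -0.02. Hk1 was the 1 glycolytic gene above 0, at 0.33 with a counting interval of 0.23 to 0.45. That is 1.26-fold higher in pool 1 on counts, a smaller gap than in TPM, at 30.3 in pool 1 and 18.0 in pool 2.

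The ratios downstream of pyruvate differed among themselves. The 5 pyruvate entry genes had a median of -0.04, with Mpc1, Mpc2 and Dlat between -0.04 and -0.01. The 10 TCA cycle genes had a median of -0.18, with Idh3b at -0.42, Ogdh at -0.35 and Suclg1 above 0 at 0.12. The 3 shuttle genes had a median of -0.21, with Got2 at -0.38. Dlst was the lowest of all 36, at -0.71 with a counting interval of -0.84 to -0.60, from 896 reads in pool 1 and 1650 reads in pool 2. Ldha was lower in pool 1 at -0.38, while Ldhb lay at -0.07. The 33 further pathway genes compared lay near all genes compared. Of them 18 lay below 0 (54.5%, against 53.1% of all genes) and 15 above. Their median was -0.04, against -0.03 over all genes, with Gpd2 at 1.13. The counting intervals cover counting error only, since reads without molecular identifiers are not independent molecules.

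Transcript estimates for pool 1 showed to which annotated transcripts the reads of each gene were assigned. Whether those reads came from full coding RNA was not tested. A single transcript held at least 90% of the TPM in 22 of the 37 genes, and the leading transcript was annotated as protein-coding in 36. The exception was Gapdh, whose leading transcript was Gapdh-208, a noncoding processed transcript of 483 nt with 42.8% of the Gapdh TPM and 18.5% of its reads. Gapdh-203, a complete coding transcript of 1420 nt, held 36.9% of the TPM and 54.9% of the reads. TPM divides reads by length, so short transcripts weigh more in TPM than in reads.

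The same gap between TPM and reads appeared in other genes. Hk1-218, a 784 nt model with an incomplete coding sequence, held 51.5% of the Hk1 TPM and 14.9% of its reads, while the complete Hk1-202 of 4278 nt held 46.8% of the TPM and 82.7% of the reads. In Fh1 the incomplete 542 nt model Fh1-205 held 55.1% of the TPM and 18.7% of the reads, and the complete Fh1-201 held 40.8% of the TPM and 79.5% of the reads. Mdh1-202, an incomplete model of 549 nt, held 29.7% of the Mdh1 TPM and 9.30% of its reads. A transcript marked for nonsense-mediated decay, Mdh2-203, held 28.2% of the Mdh2 TPM and 22.6% of its reads. Transcripts with a complete coding sequence held at least 80% of the TPM in 29 genes and less in 8, which were Hk1, Pfkp, Gapdh, Eno2, Mpc2, Fh1, Mdh2 and Mdh1. Transcript types came from GENCODE M21, a later annotation than that of the tables, and the split has no replicate check.

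**Figure D4:**
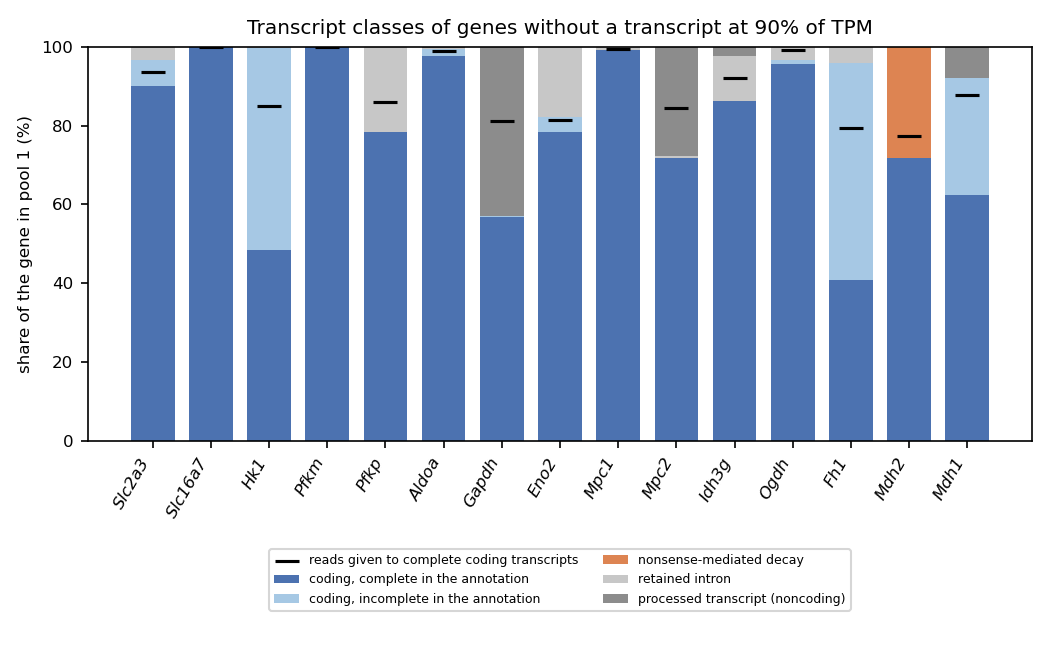
Share of each gene's TPM held by classes of transcript in pool 1, for the 15 genes in which no transcript held 90%, as stacked bars in percent, with a black line for the share of reads given to transcripts with a complete coding sequence. Complete coding transcripts hold 48.4% of the TPM of Hk1, 40.8% of that of Fh1 and 56.8% of that of Gapdh, and in each the line for reads lies above the bar.

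Many of these enzymes have near-identical copies in the genome, so the share of each gene's sequence found elsewhere was counted as the percent of its 31-mers in transcripts of other genes. It was highest for Pgk1 at 68.3%, Gapdh at 62.6%, Got2 at 57.0% and Eno1 at 53.5%, and 0% for 11 genes, among them Idh3a, Got1 and Dlst. For Gapdh, 136 genes shared at least 5% of its 31-mers, 129 of them annotated pseudogenes, and the 126 of them with read values here were together given reads equal to 7.09% of those of Gapdh in pool 1 and 6.57% in pool 2. For Mpc1 the corresponding share, over both genes that share sequence with it, was 10.5% in pool 1 and 10.4% in pool 2. For Pgk1 it was 5.85% in pool 1 and 8.06% in pool 2, over 2 of 4 such genes. The posterior SD of the count was at most 0.72% of the count for any of the 37 genes in either library. Pfkp overlaps exons of Pitrm1 on the opposite strand, which was given reads equal to 10.1% of those of Pfkp in pool 1 and 8.94% in pool 2. Whether counting used strand is not stated, so how these genes shared reads is uncertain.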

How the data were processed

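RNA was measured in 2 libraries of 1 group. Per the file headers, the deposited gene table of each library gives an expected count, which estimates the reads of a gene and is not normalized, with its posterior SD and a TPM value. A deposited transcript table, used for replicate 1, adds each transcript's percent of its gene's TPM. The deposited text files name mm10 and annotation M4. Which aligner and quantifier were used, and whether strand was used, is not given in the sources used here.

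Symbols, transcript types and exons came from GENCODE M21 on GRCm38, by identifier without version, and 42462 of 43346 genes matched. In M21 2 identifiers carry the symbol Aldoa, and the one in the tables was used. Spike-ins (96) and 26249 other entries that name no gene, at most 5.40e-05% of reads, were left out of library sizes. TMM scaling of library sizes (edgeR 4.0.16 in R 4.3.3) used expected counts rounded to whole numbers. Ratios used log2 of CPM + 1 at mean CPM of at least 10, and pairs of genes log2 of TPM + 1. Intervals are exact (Clopper-Pearson, 95%) and cover counting error only, like the floor of 3 reads per library. DESeq2 1.42.0 size factors served as an alternative scaling, beside the other alternatives reported below. The ratio step was tested on simulated data. Other steps used Python 3.11.15, pandas 2.3.3, numpy 2.4.6 and scipy 1.17.1, and matplotlib 3.10.9 drew the plots.

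The genes and gene lists were chosen with earlier results of these data known. Besides the 37 genes, the genes named were those in the 16 pairs, those beyond 2-fold and the 3 with the highest mean TPM of each further list. Genes that share sequence or exons with the 37 were named for that. Marker genes that held much of a sum were named for that after their values were seen. The text says where another gene was named after its values were seen.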

Additional observations from a re-analysis of the deposited data

How the results depend on the processing

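No paired analysis was possible because the libraries form 1 group with 1 sample for each replicate number. Detection in both pools was 37 of 37 genes at TPM of at least 1 or above 0 and 35 of 37 at TPM of at least 5. Over all protein-coding genes the share was 52.2% at TPM of at least 1, and it was not counted at the other cuts. None of the genes compared passed 2-fold under TMM, DESeq2 size factors, total counts, spike-in totals, a pseudocount of 0.1 or any minimum on CPM. The share of all genes past 2-fold ran from 1.94% at a minimum mean CPM of 100 to 10.4% at a minimum of 1. It was 4.46% with TMM and 7.22% with spike-in totals. The median ratio between the pools was -0.21 with TMM, -0.22 with DESeq2 size factors, -0.18 with total counts and 0.14 with spike-in totals, where the sign reversed and the median of all genes moved to 0.33. The M1 share of Pkm was the same over coding transcripts, which is so by construction because both Pkm transcripts are annotated as coding.

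With either library left out, all 16 pairs moved by less than 1 SD, which with 2 libraries is so by construction, with Ldhb to Ldha between 1.24 and 1.55 and the glycolytic minus TCA cycle median between 1.04 and 1.49. That median was -1.96 over all enzymes at mean TPM of at least 1, which adds low paralogs.

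Of the log2 ratios between paired genes, those on expected counts, which are not per length, moved for 14 of 16 pairs. They were 1.09 for Ldhb to Ldha, -0.88 for Eno2 to Eno1, 2.08 for Slc2a3 to Slc2a1, -0.82 for Slc16a7 to Slc16a1, -1.96 for Pfkl to Pfkp, 4.37 for Hk1 to Hk2, 13.59 for Pkm to Pklr, 2.78 for Aldoa to Aldoc, -0.62 for Mpc2 to Mpc1, -1.67 for Mdh2 to Mdh1, -1.74 for Got2 to Got1 and 3.79 for Ogdh to Ogdhl. The sign reversed for Pdha1 to Pdhb (0.0199) and for Idh3a to Idh3g (0.76). With a pseudocount of 0.1 the ratio was 4.28 for Hk1 to Hk2, 12.11 for Pkm to Pklr, 3.53 for Ogdh to Ogdhl and 2.87 for Aldoa to Aldoc, whose SD was 0.00033.

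Over protein-coding transcripts of pool 1 (replicate 1) the ratio was -1.72 for Eno2 to Eno1, -0.01 for Pfkm to Pfkp (-0.0084), -1.90 for Pfkl to Pfkp, 4.34 for Hk1 to Hk2, 3.10 for Aldoa to Aldoc, -1.12 for Mpc2 to Mpc1, -1.80 for Mdh2 to Mdh1 and -0.01 for Idh3a to Idh3g (-0.0061). Over transcripts with a complete coding sequence, chosen after seeing the data, it was -1.78 for Eno2 to Eno1, 3.08 for Aldoa to Aldoc and -1.24 for Mdh2 to Mdh1, with Pfkm, Pfkl, Mpc2 and Idh3a as over coding transcripts. The cause of these moves was not tested. Slc16a7, Hk2, Pklr and Slc16a3 had few reads, and whether depth limited them was not tested.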
